A study of Mus musculus with 26 samples.

Results

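Levels of 10 imprinted genes that mouse tissues express from the paternal copy, Mest, Peg3, Usp29, Peg10, Sgce, Snrpn, Ndn, Magel2, Nnat and Plagl1, were followed in sorted cells of fetal ovaries. These 10 genes were taken by name from the 16344 genes whose rows are complete in the count table. All 10 passed the filter on low counts in each fit. The data are counts of unique molecular identifiers (UMIs, molecules counted once each) in 1881 single cells from 26 libraries, each from 1 stage between E11.5 and E18.5. All cells came from female embryos that carry the BVSC transgenes, Blimp1-mVenus and Stella-ECFP, which report on the germ cell genes Prdm1 and Dppa3. Gonads from more than 1 embryo went into each stage, and the cells were freed with trypsin, sorted and then picked by hand. Every group shared this genotype and handling, and the groups differ in stage and sort gate: BVSC cells (1302), in which both reporters were read, Negative cells (529) with neither, and BV cells (50).

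Imprinted genes are read mainly from the copy of 1 parent because an imprinting control region carries DNA methylation from either the egg or the sperm. Primordial germ cells erase these marks as they settle in the gonad, and in females they are set anew only later, in growing oocytes after birth. The 10 genes normally have their maternal copy silenced in body cells, and many of them are known for high levels in embryonic mesoderm and low levels in adult tissues. The counts here do not separate the parental copies, so a level is the sum of both.

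The genes lie at 6 places of the mm10 genome, and all are protein-coding in the GENCODE annotation. Mest (chr6:30723547-30748465, plus strand), which encodes a protein with a hydrolase fold, shares exon bases with Copg2 on the opposite strand. Sgce (chr6:4674350-4747207, minus strand), which encodes epsilon-sarcoglycan of the cell membrane, and Peg10 (chr6:4747306-4760517, plus strand), derived from a retrotransposon, are neighbours that start next to each other on opposite strands. Peg3 (chr7:6703892-6730431, minus strand), a zinc finger protein, and Usp29 (chr7:6730578-6967219, plus strand), a ubiquitin-specific protease, are arranged in the same way. Snrpn (chr7:59982495-60140219, minus strand), which encodes a core protein of spliceosomal particles, shares exon bases with Snurf, and Snurf had 0 UMIs in all 35 pools. Ndn (chr7:62346569-62350262, plus strand) and Magel2 (chr7:62377010-62381640, plus strand) encode proteins of the MAGE family. Nnat (chr2:157560078-157562522, plus strand) encodes neuronatin, a small membrane protein, and Plagl1 (chr10:13060504-13131694, plus strand) a zinc finger transcription factor. Whether the counting used strand is not given in the sources used here, so reads from overlapping exons, as of Mest and Copg2 or Usp29 and Zim3, cannot be told apart.

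RefSeq promoter windows of the GRCm38.p6 assembly (250 bases before to 50 after a start) were found for 8 of the 10 genes and not for Peg10 and Sgce. The letters TGCCGC, which the imprint-protecting factor ZFP57 is known to read when methylated, were searched on both strands. They occurred in a window of 4 of the 8 genes (Mest, Snrpn, Nnat and Plagl1) and in 11.6% of all 32851 windows, but Mest and Snrpn have several windows each. Before the start itself they occurred for 2 genes, Mest and Plagl1, and in 8.68% of all windows. Stretches of 3 starts without annotated exons are printed here: that of Mest, the gene with the largest difference between the gates, the stretch from which Peg3 and Usp29 start in opposite directions, and that of Snrpn, the gene that differed the other way. They run from 5′ to 3′ on the strand of the gene, and capitals mark TGCCGC or its reverse complement.
Mest, chr6:30737800-30738049, plus strand: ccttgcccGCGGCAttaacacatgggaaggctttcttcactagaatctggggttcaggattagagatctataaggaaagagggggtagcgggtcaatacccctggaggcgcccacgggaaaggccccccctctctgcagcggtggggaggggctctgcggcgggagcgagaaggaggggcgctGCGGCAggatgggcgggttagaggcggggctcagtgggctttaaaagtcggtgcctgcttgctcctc
Peg3 and Usp29, chr7:6730432-6730577, plus strand: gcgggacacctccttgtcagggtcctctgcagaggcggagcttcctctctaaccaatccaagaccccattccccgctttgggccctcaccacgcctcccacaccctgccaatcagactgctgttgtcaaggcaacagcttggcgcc
Snrpn, chr7:60005200-60005449, minus strand: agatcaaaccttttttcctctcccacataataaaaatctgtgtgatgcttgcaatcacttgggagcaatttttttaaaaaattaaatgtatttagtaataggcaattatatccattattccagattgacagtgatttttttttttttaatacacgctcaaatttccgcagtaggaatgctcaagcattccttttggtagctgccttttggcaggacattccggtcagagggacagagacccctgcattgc
The Mest stretch held 2 matches and 14 CpG pairs in 250 bases, the stretch between Peg3 and Usp29 had 0 matches and 5 CpG pairs in 146 bases, and the Snrpn stretch had 0 matches and 3 CpG pairs in 250 bases. The match in the Snrpn window was not complete before its start. The 17 CpG pairs in the whole Mest window exceeded those of 68.6% of all windows.

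Levels were compared in pools, the summed cells of 1 library, stage and gate with at least 5 cells, and are given as CPM, counts scaled to the deposited UMI totals (1000000 UMIs per pool). There were 18 BVSC pools (26 to 96 cells, 4743602 to 27498626 UMIs) and 17 Negative pools (8 to 48 cells, 700825 to 13141802 UMIs). At E13.5 the Negative gate had 1 pool. Only library 4 gave pools of both gates at E14.5, and at E15.5 and E16.5 the gates came from different libraries. Nothing in the labels ties a library to its own embryos, so the p-values rest on variation from library to library, part of which may be technical. Some libraries share a deposited replicate label. In BVSC cells at E14.5, libraries 4, 5 and 12 are R1 and library 14 is R2. In Negative cells, libraries 1 and 2 at E11.5 and libraries 4 and 13 at E14.5 are R1. They counted as separate pools except in the fits with merged replicates. All 13 germ markers with complete rows (16 listed), which include the reporter genes Dppa3 and Prdm1, were higher in BVSC than in Negative pools. All 12 gonadal somatic markers with complete rows (16 listed) were lower. The somatic markers summed to 15 to 321 CPM in BVSC and 1580 to 2850 CPM in Negative pools, and the germ markers to 22.2 to 957 CPM in Negative pools. The largest somatic sum in a BVSC pool was that of library 20 at E16.5. In the Negative gate, library 2 at E11.5 was a pool of 8 cells with the highest erythroid marker sum (1000 CPM). Macrophage markers peaked in both pools of library 26 at E18.5 (425 CPM in BVSC, 362 CPM in Negative). The reporter genes were higher in BVSC pools, Dppa3 at a mean of 496 against 64.6 CPM and Prdm1 at 38.5 against 2.35 CPM, which the sort had set in advance.

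Over all stages, 8 of the 10 genes were lower in BVSC than in Negative cells, 1 (Snrpn) was higher and 1 (Plagl1) was not called at an adjusted p of 0.05. Among all 9805 genes tested, 64.5% were called, 38.7% as higher and 25.8% as lower. The median log2 fold change was -2.10 over the 10 genes and 0.34 over all genes tested. In bulk sums of this kind, fewer cells with a transcript and fewer transcripts per cell cannot be told apart, and the single cells are described further on.

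**Figure D1:**
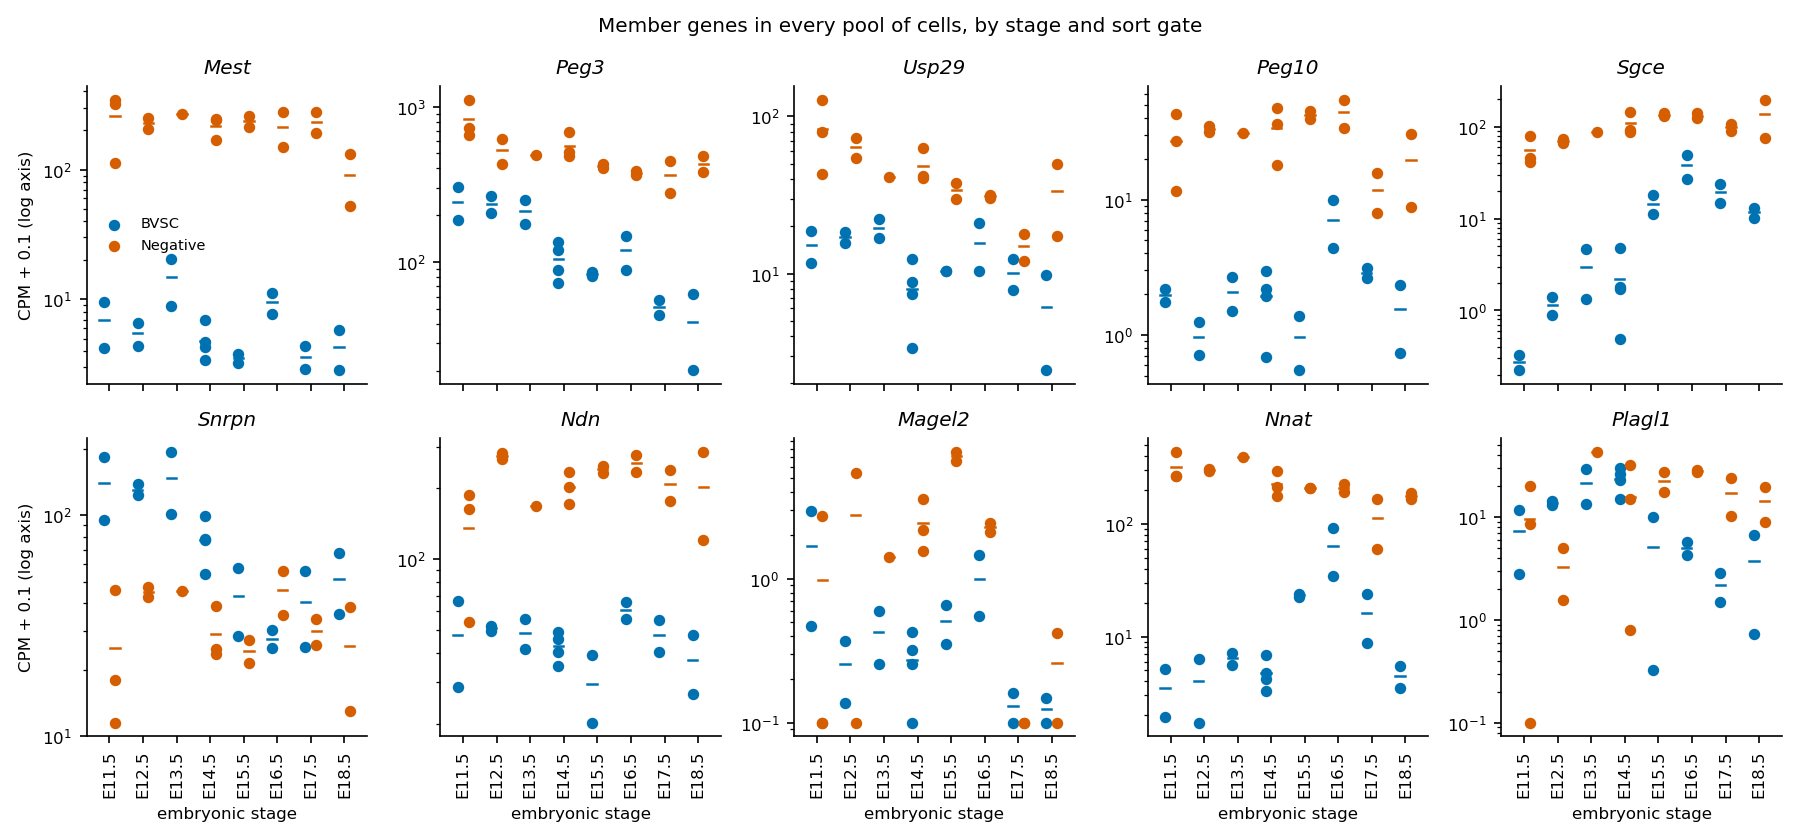
Levels of the 10 genes in each pool (points; CPM plus 0.1 on a log axis) by embryonic stage, with BVSC pools in blue, Negative pools in orange and short lines at the mean of each stage. All 18 BVSC pools lie below all 17 Negative pools for Mest, while Snrpn is higher in BVSC pools up to E14.5.

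Mest, Nnat, Sgce and Peg10 had the largest differences between the gates. Mest ranged from 2.74 to 20.5 CPM (median 4.44) in the 18 BVSC pools and from 51.9 to 346 CPM (median 242) in the 17 Negative pools. It was the member whose 2 ranges did not meet, a pattern shown by 3.19% of all genes tested, while 1.69% had every BVSC pool above every Negative pool. Its log2 fold change was -5.15 ± 0.24 (SE, adjusted p = 3.26e-18), from means of 6.33 ± 4.31 (SD, n = 18) and 218 ± 76.6 CPM (n = 17). Nnat was at 1.62 to 90.9 CPM (median 5.86) in BVSC and 59.8 to 434 CPM (median 210) in Negative pools. Within each stage every BVSC pool was below every Negative pool, but the BVSC pool of library 20 at E16.5 exceeded the Negative pool of library 24 at E17.5. With few pools per stage, separation within a stage says little alone. Its share over all genes tested was not counted, for Nnat or for the genes below. The log2 fold change of Nnat was -4.68 ± 0.37 (adjusted p = 8.47e-13). Sgce was at 0.122 to 48.9 CPM (median 4.62) in BVSC and 41.4 to 199 CPM (median 90.6) in Negative pools, again without overlap within any stage. Its log2 fold change was -4.36 ± 0.42 (adjusted p = 8.03e-11). Its neighbour Peg10 was at 0.445 to 9.76 CPM (median 1.97) and 7.84 to 54.9 CPM (median 31.6), with a log2 fold change of -3.79 ± 0.34 (adjusted p = 1.44e-11). As ratios of the mean CPM, Negative exceeded BVSC pools 34.4-fold for Mest, 13.3-fold for Peg10 and 9.99-fold for Sgce. These 4 genes kept their call under each of 33 other settings, among them fits with only those BVSC cells that held few somatic marker UMIs. Leaving out cells with somatic transcripts leans towards a wider gap for genes high in Negative cells, so that setting adds little.

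Peg3, Usp29, Ndn and Magel2 were lower in BVSC cells by about 2 on the log2 scale, and Peg3 and Ndn stayed well detected there. Peg3 ranged from 20 to 302 CPM (median 105) in BVSC and from 278 to 1110 CPM (median 478) in Negative pools. Only the early BVSC pool of library 1 reached into the Negative range, and within each stage the gates did not overlap. The log2 fold change of Peg3 was -2.02 ± 0.19 (adjusted p = 2.85e-11). Usp29, on the other side of the shared stretch printed above, was at 2.32 to 22 CPM (median 10.9) in BVSC and 11.9 to 128 CPM (median 41.1) in Negative pools. The gates overlapped at E17.5, where the pools had 7.82 and 12.2 CPM in BVSC and 11.9 and 17.7 CPM in Negative cells. Its log2 fold change was -1.74 ± 0.23 (adjusted p = 8.27e-08). Ndn had 20.1 to 66.3 CPM (median 46.6) in BVSC and 54.2 to 286 CPM (median 232) in Negative pools. Within stages the gates overlapped at E11.5 alone, where the Negative pool of library 2 had 54.2 CPM and the BVSC pool of library 7 had 66.3 CPM. The log2 fold change of Ndn was -2.08 ± 0.18 (adjusted p = 9.15e-12). Magel2 was near the limit of detection, with 432 UMIs in all cells, 0 to 2.83 CPM in BVSC and 0 to 7.5 CPM in Negative pools. It was listed at 0 in 3 BVSC and 6 Negative pools, and its ranges overlapped. Its log2 fold change of -2.12 ± 0.76 (adjusted p = 0.0154) became -1.73 with library as a block, a fit of the libraries that held both gates, and lost the call there (adjusted p = 0.314).

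Snrpn was higher in BVSC cells, and Plagl1 was not called over all stages. Snrpn was at 25 to 194 CPM (median 72.6) in BVSC and 11.4 to 55.8 CPM (median 34.0) in Negative pools. The gates did not overlap at 5 of 8 stages with BVSC higher, and at E16.5 the order was turned, with both BVSC pools (30 and 25 CPM) below both Negative pools (35.4 and 55.8 CPM). Over all stages the log2 fold change was 1.28 ± 0.27 (adjusted p = 0.000105), and it was called in all 33 alternatives. Plagl1 spread widely in both gates, from 0.223 to 29.5 CPM (median 10.7) in BVSC and from 0 to 42.8 CPM (median 17.3) in Negative pools. At 5 of 8 stages every BVSC pool was below every Negative pool, among them E15.5 to E18.5 with log2 fold changes of -1.98 to -3.24, none of them called (the lowest adjusted p was 0.0862, at E17.5). At E12.5 both BVSC pools (14.1 and 13 CPM) were above both Negative pools (1.45 and 4.92 CPM). Over all stages its log2 fold change of -0.89 ± 0.56 (adjusted p = 0.164) was not called, but it was with DESeq2 (adjusted p = 0.0415), without the filter on low counts (0.0394) and with libraries merged by deposited replicate (0.0475). Ndn, Magel2 and Snrpn lie in 1 imprinted domain, and Ndn and Snrpn were called in opposite directions.

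**Figure D2:**
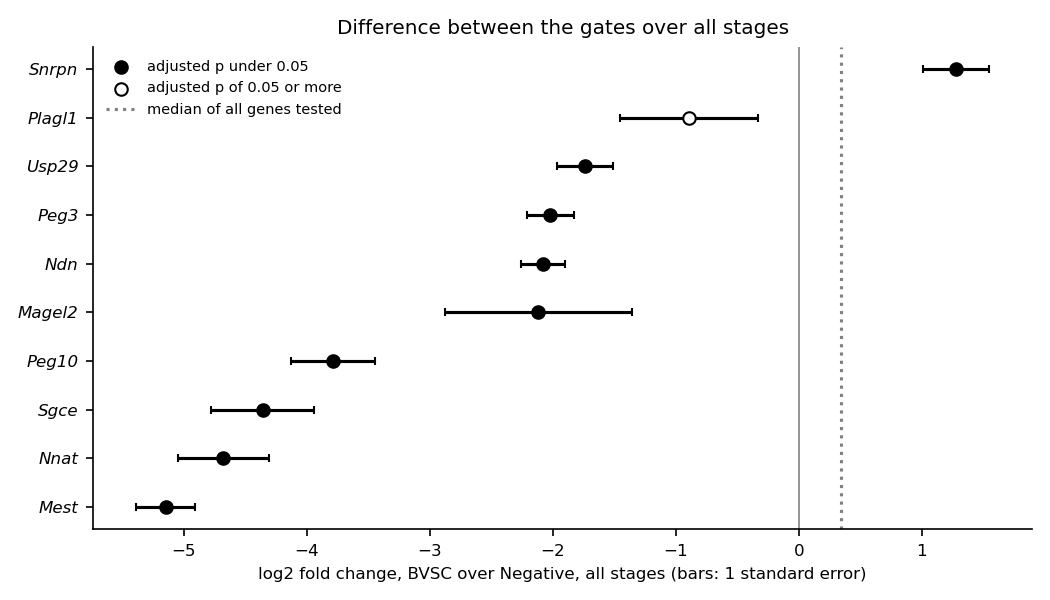
Log2 fold change of BVSC over Negative pools across all stages for each gene (points, with bars of 1 standard error), filled where the adjusted p was under 0.05. Mest is lowest at -5.15, Snrpn is the single gene above 0 at 1.28, and the dotted line marks the median of all genes tested, 0.34.

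At single stages, 49 of 80 gene and stage pairs were called, 46 as lower and 3 as higher in BVSC cells. At E11.5, 6 members were lower and 1 higher, where 8.76% of all genes were called lower and 12.9% higher, and at E12.5 5 were lower and 1 higher (8.83% of all genes lower and 10.8% higher). At E13.5, with its single Negative pool, 4 were lower (4.63% of all genes lower and 1.73% higher), and at E14.5, the stage with most pools, 7 were lower and 1 higher (14.4% lower and 15.9% higher). At E15.5 there were 6 lower (9.42% of all genes lower and 8.06% higher) and at E16.5 also 6 (8.31% lower and 9.03% higher). At E17.5 there were 5 (10.2% lower and 5.85% higher) and at E18.5 there were 7 (9.84% lower and 7.59% higher), with 0 members higher at these 4 stages. By gene, Mest, Nnat and Sgce were lower at 8 of 8 stages, Peg10 at 7, Peg3 and Ndn at 6 and Usp29 at 3. Snrpn was higher at 3 stages, and Magel2 and Plagl1 were called at 0 of 8. The difference of Mest ranged from -4.05 ± 0.62 at E13.5 to -6.21 ± 0.65 at E17.5 (adjusted p = 3.13e-05 and 1.26e-08).

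Most stages had 2 pools per gate, and several of these calls were lost when 1 library was left out, most of them with little change in the fold. In BVSC cells with few somatic marker UMIs (chosen as described further on) the E16.5 calls were kept, at -3.79 for Nnat (adjusted p = 3.39e-05), -2.67 for Sgce (0.0053) and -3.94 for Peg10 (0.00205). That choice of cells itself leans towards a wider gap for these genes. With all BVSC cells the E16.5 calls of Nnat (log2 fold change -1.68, adjusted p = 0.0262), Sgce (-1.74, 0.0496) and Peg10 (-2.58, 0.0335) were each lost without library 22 (adjusted p = 0.27, 0.286 and 0.258) and without library 23 (0.0588, 0.105 and 0.163). Without library 21 Nnat (0.0875) and Sgce (0.132) lost the call, and without library 20 Sgce (0.0885) and Peg10 (0.0794). The E16.5 call of Sgce was lost in 4 further cases, without library 1 (0.0546), 8 (0.058), 14 (0.0525) or 18 (0.0514), with its fold at -1.74 in each. At E17.5 Nnat (-2.99, adjusted p = 0.000217) had a fold change of -1.37 without library 25 (0.309), and Ndn (0.17) and Sgce (0.102) lost their calls there, as did Sgce without library 24 (0.136). At E18.5 Peg10 and Usp29 were lost without library 6 (0.0932 and 0.0528) or 26 (0.0563 and 0.0845). At E11.5 Peg10 was lost without library 1 (-3.38, 0.0657) or 7 (-3.43, 0.0631), from -3.55 with all, and Usp29 without 7 (-2.05, 0.14), from -2.09. Ndn at E12.5 was lost without library 8 (-2.29, 0.0591), from -2.19, and Peg10 at E13.5 without library 10 (-4.38, 0.0846), from -3.70. Other calls were gained. Ndn at E11.5 (-1.18, adjusted p = 0.0551 by edgeR), Peg3 at E12.5 (-0.9, 0.069) and Usp29 at E12.5 (-1.67, 0.0645) were called with DESeq2 (0.00313, 0.00417 and 0.00279). They were also called with upper-quartile scaling and in some fits without 1 library. The 49 called pairs became 46 to 52 with a library left out and 51 to 58 in the other alternatives.

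**Figure D3:**
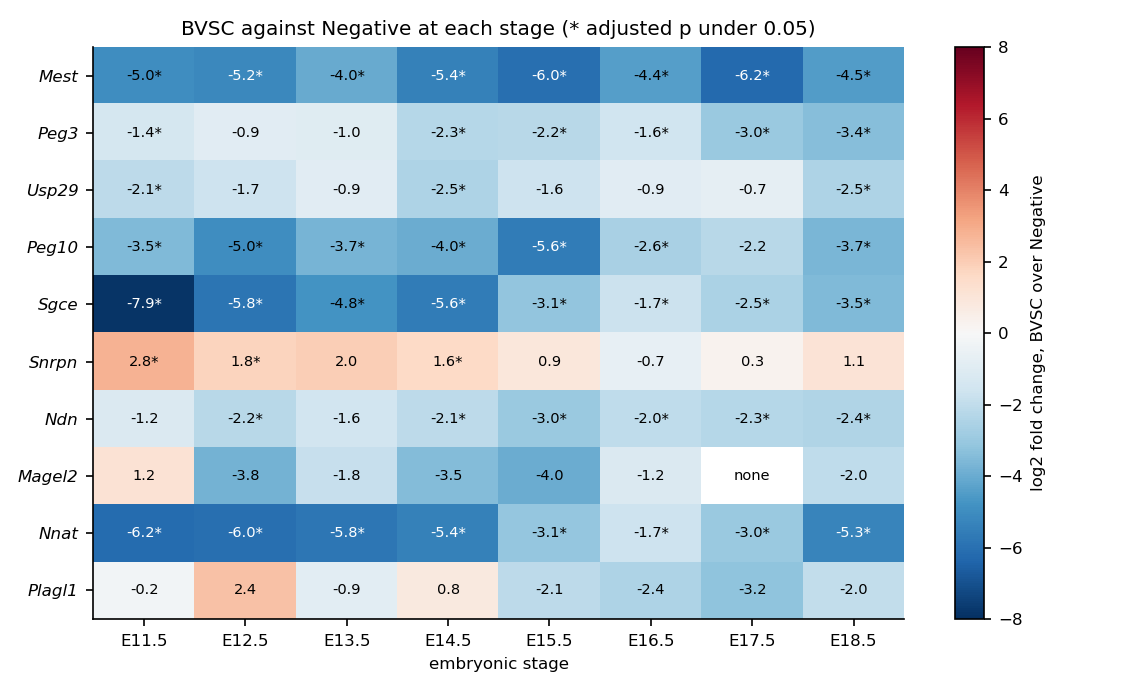
Log2 fold change of BVSC over Negative pools for each gene (rows) at each stage (columns), in blue where BVSC is lower and red where it is higher; asterisks mark an adjusted p under 0.05, and "none" marks Magel2 at E17.5, where all Negative pools had 0 UMIs. Mest, Nnat and Sgce are called lower at all 8 stages, with Nnat and Sgce closest to 0 at E16.5 (-1.68 and -1.74; -3.79 and -2.67 in BVSC cells with few somatic marker UMIs).

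The difference between the gates changed with stage for 4 genes. The mean difference of late stages (E16.5 to E18.5) was set against that of early stages (E11.5 to E13.5), and 4 members were called, 2 in each direction, where 14.6% of all genes were (5.13% upwards, 9.49% downwards). The gap narrowed for Sgce by 3.57 ± 0.55 (adjusted p = 1.15e-05) and for Nnat by 2.66 ± 0.45 (4.61e-05) on the log2 scale. It widened for Peg3, with a change of -1.57 ± 0.30 (adjusted p = 0.000213). For Snrpn the early excess in BVSC cells shrank, with a change of -1.94 ± 0.49 (adjusted p = 0.00483). These 4 calls were kept in all 32 alternatives. Plagl1 had a change of -2.96 ± 1.05 (adjusted p = 0.0516), which was called in 10 of 32 alternatives, among them DESeq2 (0.03) and the fits without library 3 (0.0276), 4 (0.0366), 6 (0.0204), 7 (0.0245), 16 (0.0376) or 18 (0.031). The change from E11.5 to E18.5 also differed between the gates for Sgce (4.34 ± 1.00, adjusted p = 0.00468) and Peg3 (-2.01 ± 0.47, 0.0061), where 6.73% of all genes were called (2.2% upwards, 4.53% downwards). The Sgce value starts from 2 and 5 UMIs in the E11.5 BVSC pools. The Peg3 value was -1.23 without library 26 (adjusted p = 0.219) and lost its call without library 1 (0.121), and it was -3.06 without library 6, where the call was kept.

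Sgce and Nnat rose in BVSC cells in the middle of the series, when female germ cells pass through meiotic prophase. Sgce had 0.122 and 0.228 CPM (2 and 5 UMIs) in the 2 BVSC pools of E11.5 and 0.391 to 4.69 CPM in the 4 of E14.5 (median of the 4 pools 1.66 CPM). It had 18 and 11.1 CPM at E15.5 and 48.9 and 27.3 CPM at E16.5. It was lower again after that, at 14.7 and 23.9 CPM at E17.5 and 10.1 and 13.1 CPM at E18.5. Each pool from E15.5 on was above each pool of the stages before E15.5. Folds of Sgce that start at E11.5 rest on few UMIs at that stage. Between E11.5 and E14.5, a window in which 13.9% of all genes tested in BVSC pools were called (8.35% higher, 5.58% lower) and 2 of the 10 members, Sgce rose by 3.26 ± 0.94 on the log2 scale (adjusted p = 0.0245). That call was lost without library 1 (0.173), 4 (0.0588) or 7 (0.124) and with BVSC cells of few somatic marker UMIs (0.0759). Between E14.5 and E16.5 (16.3% of all genes, 8.81% higher and 7.51% lower; 3 members) Sgce rose by 4.17 ± 0.72 (adjusted p = 0.000587), and between E11.5 and E18.5 (27.8%, 15% higher and 12.8% lower; 3 members) by 5.74 ± 1.07 (0.00043).

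Nnat was level until E14.5 and then peaked. Its BVSC pools had 1.62 to 7.08 CPM from E11.5 to E14.5, 22.3 and 23.8 CPM at E15.5 and 90.9 and 34.6 CPM at E16.5, the former in library 20. At E17.5 they had 23.8 and 8.62 CPM and at E18.5 5.43 and 3.37 CPM, within the early range. From E14.5 to E16.5 Nnat rose by 3.68 ± 0.61 on the log2 scale (adjusted p = 0.000408). From E16.5 to E18.5, where 1.23% of all genes (0.361% higher, 0.869% lower) and 2 members were called, it fell by 3.84 on the log2 scale (SE 0.80, adjusted p = 0.0205), a call lost without library 20 (0.28) or 26 (0.133). Nnat and Sgce both had their highest pools at E16.5. From E11.5 to E18.5 the difference of Nnat was 0.07 ± 0.73 (adjusted p = 0.972).

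The peak coincided with the highest somatic marker sums among BVSC pools. These were 23.5 to 39.8 CPM at E14.5, 98.9 and 124 CPM at E15.5, 321 and 184 CPM at E16.5, 121 and 68.0 CPM at E17.5 and 56.3 and 39.2 CPM at E18.5, against 2510 and 2850 CPM in the Negative pools of E16.5. Of the 12 somatic markers 4 rose in BVSC pools between E14.5 and E16.5. To see how far the rise held without such cells, BVSC cells were kept only where somatic marker UMIs were under 2% of germ marker UMIs, a limit chosen after seeing the data that left 1143 of 1302 cells (87.8%). In these cells Nnat rose by 2.53 (adjusted p = 0.039) and Sgce by 3.42 (0.00777) on the log2 scale between E14.5 and E16.5. The later fall of Nnat was -1.63 and no longer called (adjusted p = 0.496). Germ marker sums of BVSC pools were higher at E16.5 (4580 and 5150 CPM) than at E14.5 (3370 to 3630 CPM). The limit, set relative to them, thus allowed more somatic marker CPM at E16.5. The part of somatic transcripts in the remaining rise was not tested.

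Peg3 and Snrpn went down in BVSC cells over the same span. Peg3 had 302 and 187 CPM at E11.5, 73.0 to 134 CPM in the 4 pools of E14.5, 148 and 89.4 CPM at E16.5 and 62.2 and 20 CPM at E18.5. All pools up to E13.5 (176 CPM or more) were above all pools from E14.5 on. From E11.5 to E14.5 Peg3 fell by 1.41 on the log2 scale (SE 0.31, adjusted p = 0.00392, and 0.0845 without library 1), and from E11.5 to E18.5 by 2.84 (SE 0.40, adjusted p = 2.15e-05). From E16.5 to E18.5 it dropped by 1.57 on the log2 scale (adjusted p = 0.0461), a call lost in 10 alternatives, with adjusted p = 0.491 without library 20, 0.241 without 26, 0.0631 without 3, 0.0585 without 8, 0.0586 without 9, 0.0556 without 10, 0.0645 without 12, 0.066 without 14, 0.0574 with merged replicates and 0.402 with BVSC cells of few somatic marker UMIs. Usp29, its neighbour, had fold changes of the same sign in these 3 windows but was not called (-1.11, -1.59 and -1.41, adjusted p = 0.197, 0.0892 and 0.342).

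Snrpn had 95.2 and 184 CPM at E11.5, 138 and 123 CPM at E12.5 and 101 and 194 CPM at E13.5 in BVSC pools. It was at 54.3 to 99.4 CPM in the 4 pools of E14.5, 28.4 and 57.7 CPM at E15.5 and 30 and 25 CPM at E16.5, and then 55.8 and 25.2 CPM at E17.5 and 35.5 and 67.7 CPM at E18.5. The pools of E15.5 and later were all below those of E11.5 to E13.5. Snrpn fell by 1.53 on the log2 scale from E14.5 to E16.5 (SE 0.45, adjusted p = 0.0241) and by 1.66 from E11.5 to E18.5 (SE 0.49, adjusted p = 0.0153). The first was lost without library 20 (0.114) or 22 (0.174) and with merged replicates (0.0647), the second without library 6 (0.141) or 7 (0.219). Against the Negative cells of the same stage, Snrpn was higher by 2.76 ± 0.53 at E11.5 (adjusted p = 0.000188), 1.79 ± 0.59 at E12.5 (0.0276) and 1.58 ± 0.45 at E14.5 (0.00708). The E12.5 call was lost without library 8 (0.325) or 9 (0.224) and with upper-quartile scaling (0.0892), and that of E14.5 with merged replicates (0.0568). At E13.5 the fold change was 1.96 ± 0.76 (adjusted p = 0.123), and at E16.5 -0.65 ± 0.57 (0.447). By edgeR, Mest, Peg10, Ndn, Usp29, Magel2 and Plagl1 were called in 0 of the 4 windows of BVSC cells, and at an unadjusted p under 0.05 Plagl1 passed from E14.5 to E16.5 (-2.30, p = 0.0307 by edgeR across all genes) and Usp29 and Magel2 from E11.5 to E18.5 (p = 0.0309 and 0.035). DESeq2 called these 3 (adjusted p = 0.0447, 0.0382 and 0.0498). It called 2221 of 10246 genes from E14.5 to E16.5 and 3520 from E11.5 to E18.5. The share of all genes at an unadjusted p under 0.05 was not counted. Plagl1 was also called from E14.5 to E16.5 with BVSC cells of few somatic marker UMIs (-3.29, 0.0338), without the filter on low counts (0.0155) and without library 16 (0.038) or 18 (0.0386). Usp29 was also called from E11.5 to E18.5 without library 6 (-2.82, 0.0256). The calls of all members in the 4 windows, 10 in edgeR, numbered 7 to 14 over the alternatives.

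In Negative cells fewer changes between stages were called, in a separate fit, and the gates were not compared by these counts. Between E11.5 and E14.5 and between E14.5 and E18.5 none of the 10 members was called by edgeR (of all genes 1.26% were in the first window, 0.994% higher and 0.268% lower, and 0.614% in the second, 0.413% higher and 0.201% lower). At an unadjusted p under 0.05 there were 3 members (Nnat, Sgce and Peg3) and 1 member (Mest), and the share of all genes at that limit was not counted. DESeq2 called Peg3 in the first window and none in the second, and the fit without the filter on low counts called Mest in the second. Over all genes, DESeq2 called 268 of 8955 in the first window and the unfiltered fit 212 of 12070 in the second. Between E11.5 and E18.5 (3.94% of all genes, 2.48% higher and 1.46% lower) Mest fell by 1.61 on the log2 scale (SE 0.42, adjusted p = 0.0278), with 319, 113 and 346 CPM at E11.5 and 51.9 and 131 CPM at E18.5. The early pool of library 2 was below the late pool of library 26. Peg3 fell by 1.05 on the log2 scale (SE 0.27, adjusted p = 0.0263), from 652, 1110 and 725 CPM to 378 and 478 CPM, without overlap. The Mest call was lost without library 1 (0.0835), 6 (0.278) or 7 (0.0895) and with cells whose markers match their gate (0.0921). The Peg3 call was lost without library 2 (0.13), 6 (0.215) or 26 (0.0753), with pools of at least 10 cells (0.133) and with matching cells (0.184).

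Counts in single cells show whether a level came from many cells or few. To compare cells of unequal depth each was thinned to 50000 UMIs, which left out 62 BVSC and 60 Negative cells below that total. Mest then had a UMI in 13.2% of 1240 BVSC cells (95% exact binomial interval 11.4% to 15.2%) and 80.6% of 469 Negative cells (76.7% to 84.1%). These intervals cover counting error only, and cells of a library are not replicates. The shares were 22.3% and 82.7% for Nnat, 17.1% and 73.1% for Sgce, 7.98% and 47.1% for Peg10, and 1.05% and 5.76% for Magel2. Peg3 was found in 85.4% of BVSC and 98.1% of Negative cells, Ndn in 60.0% and 92.8%, and Usp29 in 29.3% and 42.9%. Snrpn was seen more widely in BVSC cells (81.0%, against 56.3%), and Plagl1 in 21.1% and 28.6%. A median of 3 of the 10 genes was detected per BVSC cell and 6 per Negative cell. Over all their counts, the tenth of BVSC cells with most Mest UMIs (131 of 1302 cells) held 80.1% of them, and the same share was 37.2% for Peg3 and 40.1% for Snrpn. Without thinning, at a median of 248293.5 UMIs per BVSC and 169412 per Negative cell, the shares were 35.5% and 87.1% for Mest, 54.8% and 87.5% for Nnat, 30.9% and 79.0% for Sgce and 25.3% and 63.9% for Peg10. They were 95.7% and 99.2% for Peg3, 51.4% and 57.3% for Usp29, 81.0% and 95.7% for Ndn, 90% and 72.6% for Snrpn, 3.07% and 9.83% for Magel2 and 37.4% and 49.1% for Plagl1.

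The stage courses were seen in the share of cells as well. Nnat was found in 10.9% of BVSC cells at E14.5 (7.40% to 15.2%), 57.8% at E16.5 (50.1% to 65.3%) and 14% at E18.5. Sgce went from 5.99% (3.46% to 9.55%) to 53.2% (45.5% to 60.8%) and 15.1%. With the cells of few somatic marker UMIs alone, the E16.5 shares were 44.1% for Nnat (35.3% to 53.2%) and 42.5% for Sgce (33.8% to 51.6%), against 8.73% and 4.37% at E14.5. At E16.5 the 19 of 188 BVSC cells with most Nnat UMIs held 68.5% of them, and the median cell had 13.2 CPM. Snrpn was found in 97.7% of BVSC cells at E11.5 and 60.1% at E16.5, and Peg3 in 99.2% at E11.5 and 65.6% at E18.5.

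**Figure D4:**
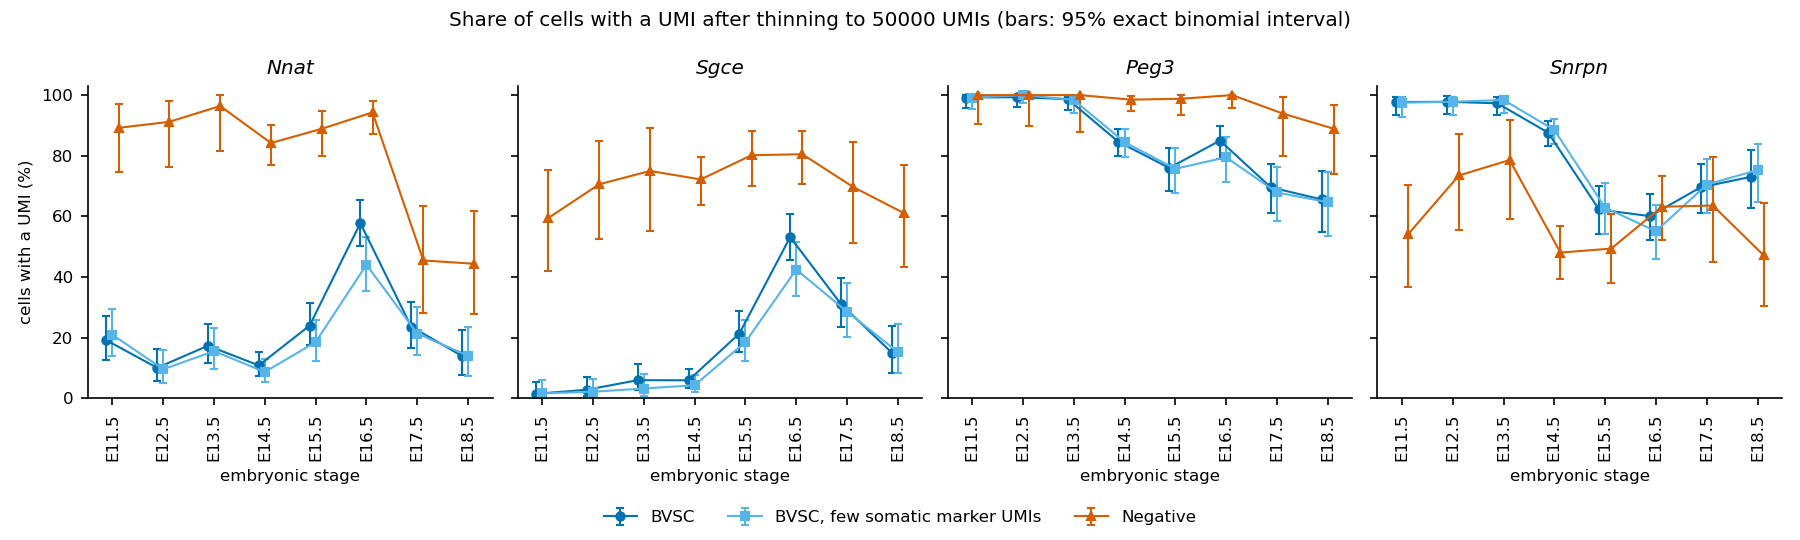
Share of cells with a UMI of Nnat, Sgce, Peg3 and Snrpn by stage, each cell thinned to 50000 UMIs (bars are 95% exact binomial intervals); dark blue circles are all BVSC cells, light blue squares those with few somatic marker UMIs and orange triangles Negative cells. Nnat and Sgce peak at E16.5 in BVSC cells, at 57.8% and 53.2%, while Peg3 and Snrpn start at 99.2% and 97.7%.

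Neighbours on the chromosome were compared in the same cells. In Negative cells Peg3 had a UMI in 100% of the cells with Usp29 and 96.6% of those without, and in BVSC cells in 92.6% and 82.4%. Peg10 was found in 17.9% of BVSC cells with Sgce and 5.93% of those without, and in 51.0% and 36.5% of Negative cells. Snrpn was found in 86.3% of BVSC cells with Ndn and 73.0% of those without. The cells of these shares come from all stages, and the stage alone can move both genes of a pair.

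Over the 35 pools, the pattern most like that of Usp29 was that of Peg3. Likeness was the root mean square difference of log2(CPM + 1) after centring each gene, which was 0.58 for this pair, and 0 of 9795 other genes were nearer to Usp29. The nearest of those other genes, Ahdc1, was almost as near (0.60). For Peg3 the nearest gene was Bag3, a co-chaperone (0.50), and 6 genes were nearer than Usp29. Ndn was nearest to Pnrc2 (0.42), Snrpn to Nelfa (0.48), Nnat to the myosin light chain Myl9 (0.61), Peg10 to Olfml2b (0.65), Sgce to the growth factor Gas6 (0.70), Magel2 to Slc16a14 (0.72) and Plagl1 to Gas2l3 (1.01). Peg10 and Sgce, which also share a start region, were not each other's nearest member, which was Ndn for Peg10 (0.91) and Nnat for Sgce (1.05). Of the nearest genes Myl9 had 40.7 CPM in BVSC and 629 CPM in Negative pools, and Nelfa 122 and 59.1 CPM.

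Among Negative cells the genes were not spread evenly. The 529 cells were clustered without imprinted genes into 12 groups of 17 to 94 cells, which are named by their leading genes. Plagl1 was highest in cluster 10, led by genes such as Lum and Dcn with 8 of 8 stroma markers raised (a stroma-like cluster), at 135 CPM. It followed in cluster 9, also with 8 of 8 stroma markers but led by cell division genes such as Aspm, at 65.9 CPM, and in cluster 8 (6 of 8 stroma markers) at 45.9 CPM. In clusters 1, 2 and 11 it was at 3.09, 3.70 and 1.58 CPM. Cluster 4, led by Pax8, a gene of the mesonephros, had the highest Peg10 (83.7 CPM), Snrpn (58.6 CPM), Magel2 (8.53 CPM) and Peg3 (705 CPM) in these sums, and, with 117 CPM, a low Mest. By the median of libraries with at least 5 cells in a cluster, Peg3 was higher in cluster 3 (690 against 645 CPM) and Magel2 in cluster 6 (6.37 against 2.83 CPM). Mest of cluster 4 was at 173 CPM by that median, above cluster 9 (91.8 CPM). In the sums, Sgce was lowest outside cluster 12 in the early cluster 3 (34.0 CPM), and Nnat was highest in cluster 5 (402 CPM), led by Aspm and Crabp2. By the library median Nnat was higher in cluster 4 (404 CPM) than in cluster 5 (367 CPM). Cluster 12, whose 17 cells were led by immune genes such as Srgn and Fcer1g and which also held 9 of 13 germ markers, had 10.0 CPM of Mest, 12.8 CPM of Nnat, 18 CPM of Ndn, 1.63 CPM of Usp29, 76.6 CPM of Peg3, 2.57 CPM of Peg10 and 19.6 CPM of Sgce, the lowest of the 12 clusters for each. Its Snrpn (25.2 CPM) lay among the other clusters. Clusters differ in stage and library, these values come from sums over cells with no test, and the part of stage in them was not tested.

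**Figure D5:**
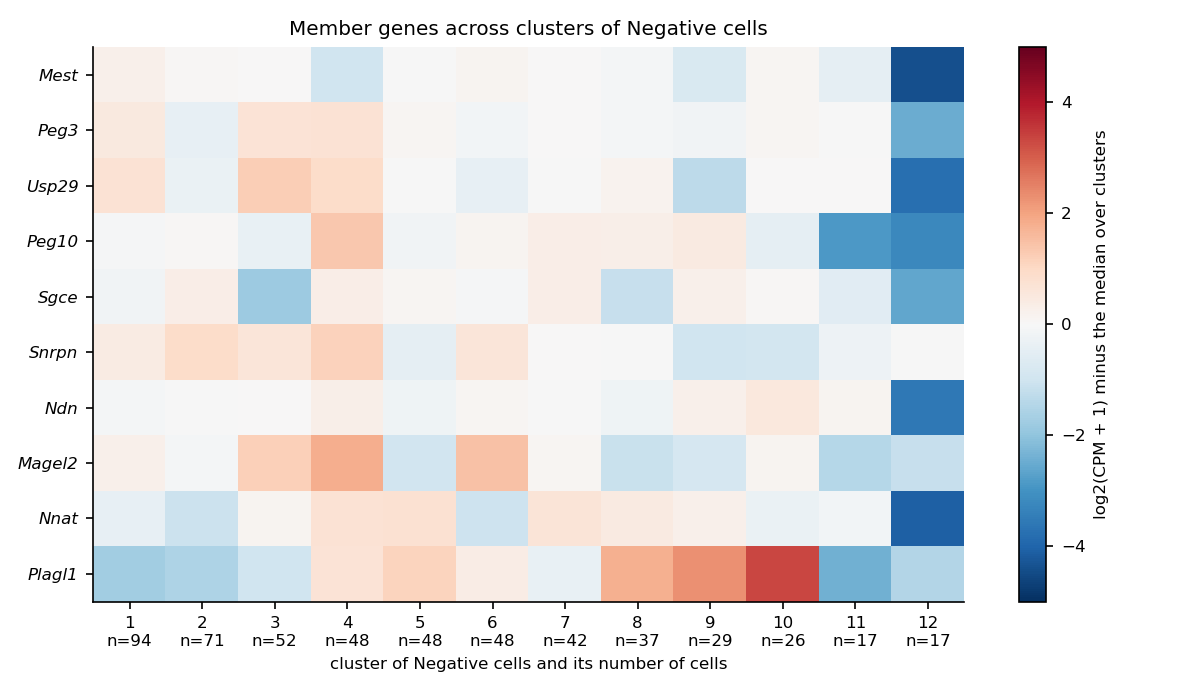
Log2(CPM + 1) of each gene in 12 clusters of Negative cells, minus the gene's median over the clusters (red higher, blue lower), with the number of cells under each cluster. Plagl1 is highest in clusters 8, 9 and 10 (45.9, 65.9 and 135 CPM), and cluster 12 is lowest for Mest, Nnat, Ndn, Usp29, Peg3, Peg10 and Sgce.

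Other imprinted genes in the table were called in both directions. Of 29 further genes listed here as paternally expressed, 14 had complete rows and 13 were tested. Of these 13, 6 were higher and 4 lower in BVSC pools. These were near the shares over all genes (38.7% and 25.8%), with a median log2 fold change of 0.42 against 0.34 over all genes. Igf2, a growth factor, was lower (-3.63 ± 0.44, 1.07 against 12.1 CPM), as was the long noncoding RNA Kcnq1ot1 (-1.89 ± 0.22). Zim3, which overlaps Usp29, was higher (3.28 ± 0.98, 1.45 against 0.19 CPM), but its listing as paternally expressed could not be checked in these counts. Also higher were Ins2 (2.75 ± 1.14), Sfmbt2 (2.47 ± 0.40) and Zdbf2 (1.68 ± 0.35). Of 33 genes listed as maternally expressed, 25 had complete rows and 24 were tested. Of these 24, 5 were higher and 12 lower, with a median of -1.19. The largest folds were those of Tfpi2 (-5.25 ± 0.94), Tspan32 (-4.86 ± 0.46), Kcnq1 (-4.07 ± 0.55), Zim1 (-3.82 ± 0.45) and the noncoding RNA H19 (-3.76 ± 0.20, 50.1 against 648 CPM) below 0 and of Slc22a18 (3.6 ± 0.66) above 0. Copg2, which overlaps Mest, went the other way from it, at 35.3 against 25.3 CPM (0.67 ± 0.22, adjusted p = 0.0097), and Blcap, next to Nnat, was at 49.6 against 40.5 CPM (adjusted p = 0.095).

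Of 24 listed factors that erase or protect imprints, 14 had complete rows and 13 were tested. Of these 13, 7 were higher and 2 lower in BVSC pools (median 0.45), against 38.7% and 25.8% of all genes tested and their median of 0.34. Apobec1, a cytidine deaminase, was higher (4.19 ± 1.31), as were Dppa3 (3.64 ± 0.48), which guards methylation in the egg and was a sort reporter here, Nlrp5 (2.00 ± 0.55), Mbd4 (1.47 ± 0.27) and the histone methyltransferase Setdb1 (1.40 ± 0.23). Tet3, which oxidises methylcytosine, was lower (-2.52 ± 0.46). Apobec1 and Nlrp5 were uneven over the pools. Apobec1 had means of 3.31 ± 7.48 (SD) in BVSC and 1.02 ± 1.95 CPM in Negative pools, and Nlrp5 13.2 ± 37.0 and 1.79 ± 5.14 CPM. The lists were picked with earlier results of these data known.

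In the 3 pools of BV cells, for which no comparison was made, the members lay nearer to BVSC than to Negative levels for Mest (4.48, 11.1 and 2.86 CPM) and Peg3 (80.6, 137 and 57.4 CPM). Nnat was at 24.6, 41.3 and 10.4 CPM and Sgce at 2.24, 24.0 and 3.68 CPM, and the second value of each is that of library 4 at E14.5. Snrpn was at 13.4, 42.2 and 53.3 CPM and Peg10 at 13.4, 1.46 and 0 CPM. Their first values, of library 2 at E11.5, lay within the Negative range of that stage (11.4 to 45.6 and 11.4 to 43.2 CPM) and outside that of BVSC. That pool was sparse, with 2 UMIs of Mest and 6 each of Snrpn and Peg10.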

How the data were processed

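The deposited table holds UMI counts per gene and cell, made by the authors with a modified STRT-seq protocol that reads 3' ends, per the labels' protocols. The submitters' processing notes name CASAVA 1.8, UMI-tools, STAR, featureCounts, Subread and the mm10 build, without settings. The table was used up to its last complete row, 16344 genes, which held a median of 51.2% (40.1% to 56.4%) of a cell's deposited total count. Genes on other chromosomes and other genes without a complete row, among them part of each comparison list, were not analysed here. Sort gate, stage and library came from the deposited cell table, whose other columns are labels.

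Cells were summed per library, stage and gate (at least 5 cells). CPM used the deposited totals. Gates and stages were compared with edgeR 4.0.16 in R 4.3.3 (TMM, filterByExpr, trended dispersion, quasi-likelihood test), with Benjamini-Hochberg adjustment over all genes tested. Fits leaving out a library reused the gene set and dispersion trend. Alternatives were DESeq2 1.42.0, upper-quartile scaling, no filter, larger pools, marker-concordant cells, merged replicates, library as a block, and BVSC cells with few somatic marker UMIs (added after seeing the data). The gates of a library pair by the cell table. Their deviations from the group means correlated at 0.05 to 0.2 across genes in 9 libraries. Negative cells were clustered with scanpy 1.11.5 (2000 variable genes, 30 components, 15 neighbours, Leiden resolution 1) without imprinted genes. Doublets were not called, since cells were picked singly. Cell names hold well numbers alone, so barcodes shared between libraries could not be counted. Intervals are exact binomial. The fits were tested on simulated data. The members and gene lists were chosen with earlier results of these data known. Genes named are the members, the nearest gene to each (that of Mest is not reported here), and the largest folds among called genes of each list.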

Additional observations from a re-analysis of the deposited data

Results flagged for a closer look

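These 6 values stood out because the difference between BVSC and Negative cells was not the same at all stages, each by a test of that change in edgeR. From the early stages (E11.5 to E13.5) to the late stages (E16.5 to E18.5), the log2 difference moved by 3.57 for Sgce and 2.66 for Nnat and by -1.57 for Peg3 and -1.94 for Snrpn. From E11.5 to E18.5 alone it moved by 4.34 for Sgce and by -2.01 for Peg3. The BVSC pools of E16.5, where Sgce and Nnat were highest, also had the highest somatic marker sums of their gate (321 and 184 CPM). In BVSC cells with few somatic marker UMIs the early to late change was 3.87 for Sgce and 1.92 for Nnat (adjusted p = 0.00572), -1.90 for Peg3 and -2.02 for Snrpn. The BVSC gate at E14.5, the single group of 4 pools, had 0 of 10 members with a pool far from the others.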

How the results depend on the processing

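Of 76 calls over all comparisons, 52 were kept under every alternative. In Negative cells the number of calls between stages, 2, was 4 without the filter on low counts, 1 with pools of at least 10 cells, 1 with cells whose markers match their gate, and 1 to 2 when libraries were left out in turn. With matching cells and without library 6 both calls were lost, and the 1 call was that of Sgce. The change from E11.5 to E18.5 differed between gates for 2 genes, or 1 to 2 with a library left out. With bases before the start alone, 2 genes in place of 4 held the promoter motif. With library as a replicate block, 8 members were called between the gates over all stages, Magel2 alone lost its call, and 4451 genes in place of 6323 were called. The early to late change of Mest (-0.31, not called) ranged from -0.51 to 0.13 with a library left out and was -1.02 in BVSC cells of few somatic marker UMIs, and that of Magel2 (1.09, not called) from -1.33 to 2.59, with -0.98 in BVSC cells of few somatic marker UMIs. The causes were not tested. With 2 pools per gate at most stages and 8 cells in the smallest pool, single stages are the least certain values, and Magel2 was too sparse to follow by stage.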
